A study of Mus musculus with 12 samples.

Results

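The Toll-like receptors described here were the 10 mouse genes Tlr1, Tlr2, Tlr3, Tlr4, Tlr5, Tlr6, Tlr7, Tlr8, Tlr9 and Tlr13, chosen by their symbols from a table of 46078 genes, and all 10 had a row in it. Toll-like receptors are membrane proteins of innate immune cells that bind molecules shared by many microbes, or released by damaged cells, through an ectodomain of leucine-rich repeats and signal through a cytoplasmic TIR domain. Tlr1, Tlr2, Tlr4, Tlr5 and Tlr6 encode receptors of the cell surface, whereas Tlr3, Tlr7, Tlr8, Tlr9 and Tlr13 encode receptors that reach endosomes with the chaperone Unc93b1 and read nucleic acids there. In the central nervous system they are known mainly from microglia and infiltrating macrophages, and Tlr3 also from astrocytes and neurons.

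RNA was sequenced from ventrolateral spinal cord white matter of C57Bl6 mice, after laser capture microdissection of stained cryosections, a method that isolates a small area under microscope control. There were 4 groups of 3 libraries, and each library was a pool of tissue from 5 animals: young naive, middle-aged naive, young injured and middle-aged injured. Injured tissue was taken 72 h after lysolecithin, a detergent-like lipid that strips myelin, was injected into the ventrolateral white matter, and naive tissue had no lesion. Young mice were 6 weeks and middle-aged mice 8 months old by the study's methods, while the labels give the words only, and no group carried a transgene. Naive mice received no sham injection by any of these descriptions, so that lysolecithin and the injection itself cannot be told apart.

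The deposited values were read counts per gene, with totals of 9834447 to 12807437 per pool. CPM below stands for counts scaled to the size of the library after TMM normalization in edgeR, and the differences between groups were tested in 1 fit of all 12 pools by edgeR's quasi-likelihood test over 15866 genes. All 10 receptors passed the filter on low counts, but Tlr1, Tlr5, Tlr6, Tlr8 and Tlr9 would not have passed it on the naive pools alone. Across genes, Pearson's r between pools of a group was 0.937 to 0.988, the lowest between middle-aged naive replicates 1 and 2. Mbp, a myelin protein gene that marks white matter, had 37922 to 346888 counts in every pool. The sources do not say whether the pools of a group hold different mice, and if they do not, p-values measure technical spread.

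Within GRCm38, the genes lie on chromosomes 1 (Tlr5), 3 (Tlr2), 4 (Tlr4), 5 (Tlr1 and Tlr6), 8 (Tlr3), 9 (Tlr9) and X (Tlr7, Tlr8 and Tlr13). Tlr1 (64924679 to 64933563) and Tlr6 (64952031 to 64960097) are neighbors on the minus strand of chromosome 5, with 18467 bases between them. Tlr8 (167242696 to 167264329) and Tlr7 (167304929 to 167330558) are neighbors on the minus strand of chromosome X, 40599 bases apart, and Tlr13 (106143204 to 106160493) lies far from both on its plus strand. Tlr1 and Tlr6, partners of Tlr2 in sensing bacterial lipopeptides, are near copies of each other in part of their sequence. Of the 3322 stretches of 31 bases in the exons of Tlr1, 665 occur in another gene, as do 616 of 3709 in Tlr6. The longest run that both transcripts hold, of 229 bases, is shown because reads within it could be counted for either gene; it covers positions 1939 to 2167 of a Tlr1 transcript of 3025 bases and 1652 to 1880 of a Tlr6 transcript of 3677 bases.
Tlr1 and Tlr6 shared run: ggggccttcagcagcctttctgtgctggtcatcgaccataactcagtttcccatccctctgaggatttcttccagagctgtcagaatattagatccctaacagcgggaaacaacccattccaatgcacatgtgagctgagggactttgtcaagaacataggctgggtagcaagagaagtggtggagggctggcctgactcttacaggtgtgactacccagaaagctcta
Tlr2, Tlr5, Tlr7, Tlr8, Tlr9 and Tlr13 share no stretch of 31 bases with another gene. Exons of Tlr3 overlap the antisense gene Gm45542 by 381 bases, and since the strand setting of the counting is not given in the sources used here, reads from either strand of that overlap cannot be told apart.

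Promoter windows from RefSeq (GRCm38.p6), from 250 bases before to 50 after an annotated start, were matched by symbol for 8 of the 10 genes and gave 10 windows. Tlr4 and Tlr7 had no entry. Both strands were searched for GAGGAA, the core of sites preferred by the myeloid factor PU.1 and for the longer form GAGGAAGT. A window of each of Tlr1, Tlr8, Tlr9 and Tlr13 held GAGGAA. These windows are printed 5′ to 3′ on the gene's strand, with GAGGAA or its reverse complement in capitals.
Tlr1, chr5:64933509-64933808, minus strand: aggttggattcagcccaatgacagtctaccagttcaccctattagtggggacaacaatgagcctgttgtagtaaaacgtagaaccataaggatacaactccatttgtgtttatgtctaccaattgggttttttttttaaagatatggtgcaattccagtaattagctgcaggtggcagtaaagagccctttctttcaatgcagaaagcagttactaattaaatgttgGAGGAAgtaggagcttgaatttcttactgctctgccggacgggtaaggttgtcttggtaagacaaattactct
Tlr8, chrX:167264280-167264579, minus strand: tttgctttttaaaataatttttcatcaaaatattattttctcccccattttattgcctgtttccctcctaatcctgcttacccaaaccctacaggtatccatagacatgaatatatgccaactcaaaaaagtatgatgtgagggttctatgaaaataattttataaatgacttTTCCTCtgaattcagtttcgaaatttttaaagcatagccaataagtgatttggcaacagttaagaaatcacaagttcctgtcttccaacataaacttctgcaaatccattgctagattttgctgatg
Tlr9, chr9:106222348-106222647, plus strand: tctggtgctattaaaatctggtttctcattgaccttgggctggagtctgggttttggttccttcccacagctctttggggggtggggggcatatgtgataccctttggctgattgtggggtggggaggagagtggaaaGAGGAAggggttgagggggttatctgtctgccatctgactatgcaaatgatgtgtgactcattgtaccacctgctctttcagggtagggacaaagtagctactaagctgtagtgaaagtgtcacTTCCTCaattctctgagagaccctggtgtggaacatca
Tlr13, chrX:106143025-106143324, plus strand: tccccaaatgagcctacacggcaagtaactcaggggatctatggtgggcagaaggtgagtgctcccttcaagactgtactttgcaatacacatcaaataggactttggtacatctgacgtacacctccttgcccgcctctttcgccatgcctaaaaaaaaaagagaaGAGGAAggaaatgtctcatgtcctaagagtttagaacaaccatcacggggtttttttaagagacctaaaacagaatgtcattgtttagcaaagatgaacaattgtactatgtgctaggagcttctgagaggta
The match began 23 bases before the annotated start in Tlr1, 77 in Tlr8, 83 in Tlr13 and 112 in Tlr9, where another lay 12 bases after it. GAGGAA occurred in 4 of the 10 windows, against 28.3% of 32851 mouse promoter windows. GAGGAAGT, which overlaps GAGGAA, occurred in 2 of the 10 windows and in 3.20% of all windows. The windows of Tlr2, Tlr3, Tlr5 and Tlr6, and the other window of Tlr1, did not hold GAGGAA. Tlr2 and Tlr6 also rose after injury, and a link between the motif and the rise was not tested.

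At both ages, 8 of the 10 receptor transcripts rose in injured white matter and none fell: 4 of the 5 surface receptors (Tlr1, Tlr2, Tlr4, Tlr6) and 4 of the 5 endosomal receptors (Tlr7, Tlr8, Tlr9, Tlr13). Tlr3 and Tlr5 did not pass the test at either age. Of those that rose, Tlr1, Tlr6, Tlr8 and Tlr9 passed the filter on low counts only through the injured pools, so that their calls add no support. Tlr2, Tlr4, Tlr7 and Tlr13 passed it on the naive pools alone. Of all genes tested, 28.3% rose and 26.3% fell at 6 weeks, and 29.2% rose and 29.3% fell at 8 months. The 8 that rose also had every injured pool above every naive pool at both ages, as 35.0% of all genes did in young and 31.5% in middle-aged mice. DESeq2 also called 8 receptors higher and 0 lower at each age, and edgeR found 0 lower at an unadjusted p under 0.05. The median log2 fold change of the surface receptors was 4.62 in young and 4.10 in middle-aged mice, and that of the endosomal receptors 5.27 and 4.43, the same with Tlr8 set at its lower bound. The median over all genes was 0.00 in young and -0.03 in middle-aged mice. In bulk tissue, more cells of a type and more RNA per cell cannot be told apart.

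**Figure D1:**
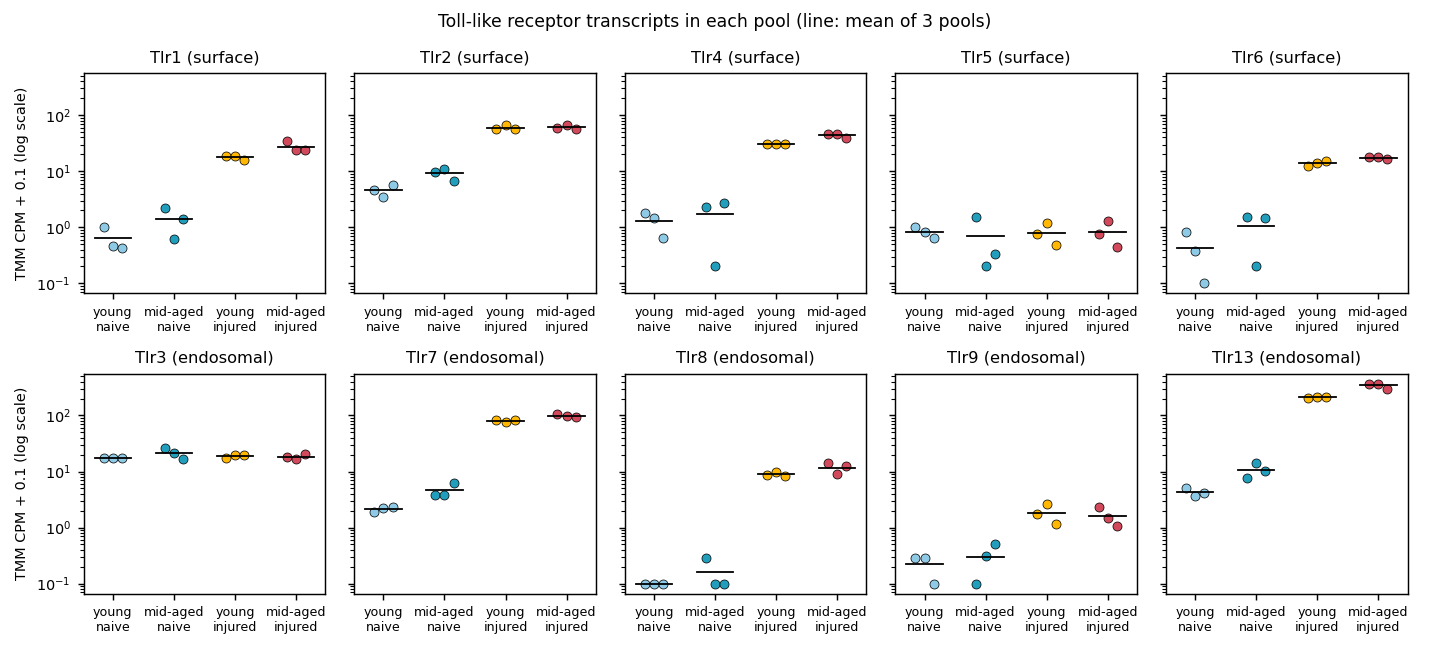
Level of each receptor transcript in each of the 12 pools, as TMM CPM plus 0.1 on a log axis, with a line at the mean of the 3 pools of a group. In 8 panels every injured pool sits above every naive pool, while Tlr3 stays near 17.4 to 21.4 CPM and Tlr5 under 1 CPM in all 4 group means.

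Tlr2, which pairs with Tlr1 or Tlr6 to sense lipopeptides, was per length the most abundant surface receptor in every group. It had 49, 37 and 52 counts in the young naive pools, 100, 105 and 81 in the middle-aged naive pools, 775, 844 and 760 in the young injured pools and 713, 828 and 662 in the middle-aged injured pools. The naive ages did not overlap, with middle-aged pools higher, whereas the injured pools of both ages overlapped. It rose from 4.47 ± 1.12 (SD, n = 3 pools) to 59.8 ± 4.83 CPM in young mice, a log2 fold change of 3.75 (SE 0.22, edgeR adjusted p = 5.68e-09). In middle-aged mice it rose from 9.03 ± 2.32 to 60.8 ± 4.70 CPM, a log2 fold change of 2.76 (SE 0.20, edgeR adjusted p = 4.57e-08).

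Tlr4, the receptor for bacterial lipopolysaccharide, had 19, 15 and 5 counts in the young naive pools and 415, 389 and 411 in the young injured pools. It had 23, 1 and 32 counts in the middle-aged naive pools and 554, 586 and 460 in the middle-aged injured pools. Every injured pool had at least 389 counts and every naive pool at most 32, and the low count of middle-aged naive replicate 2 stood apart from the other 2 of its group. Tlr4 rose with log2 fold changes of 4.62 (SE 0.47, edgeR adjusted p = 1.44e-06) at 6 weeks and 4.70 (SE 0.46, edgeR adjusted p = 7.07e-07) at 8 months, to 30.5 ± 0.402 and 44.2 ± 3.88 CPM (SD, n = 3).

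Tlr1 had 3 to 10 counts in the young naive pools, 5 to 22 in the middle-aged naive, 209 to 249 among young injured pools, and 273 to 409 among middle-aged injured pools. Its log2 fold change was 4.99 (SE 0.41, edgeR adjusted p = 1.54e-07) at 6 weeks and 4.35 (SE 0.36, edgeR adjusted p = 1.56e-07) at 8 months. Tlr6 had 0 to 8, 1 to 17, 169 to 199 and 189 to 220 counts in the same order of groups, and rose with log2 fold changes of 5.26 (SE 0.58, edgeR adjusted p = 2.85e-06) and 4.10 (SE 0.49, edgeR adjusted p = 6.15e-06). Both were close to 0 in naive tissue, where their fold changes rest on few counts, and neither injured group overlapped a naive one. Summed into 1 gene, so that reads split between the 2 genes do not matter (reads that were left out are not restored), Tlr1 and Tlr6 rose with log2 fold changes of 5.12 (SE 0.46) at 6 weeks and 4.26 (SE 0.41) at 8 months.

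Tlr5, the receptor for bacterial flagellin, had 10, 8 and 5 counts in the young naive, 15, 1 and 3 in the middle-aged naive, 9, 14 and 5 in the young injured and 8, 15 and 4 in the middle-aged injured pools. All 4 groups overlapped. Its log2 fold change was -0.05 (95% interval -1.64 to 1.55, edgeR adjusted p = 0.965) at 6 weeks and 0.32 (-1.32 to 1.96, edgeR adjusted p = 0.743) at 8 months. At this depth a change of 2-fold in either direction was not detectable for Tlr5.

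Tlr13, which recognizes bacterial ribosomal RNA, was per length the most abundant receptor transcript in both injured groups. It had 55, 39 and 37 counts in the young naive pools, 79, 133 and 127 in the middle-aged naive pools, 2821, 2754 and 2807 in the young injured pools and 4451, 4650 and 3504 in the middle-aged injured pools. None of the 4 groups overlapped another. It rose from 4.17 ± 0.757 to 211 ± 3.26 CPM (SD, n = 3) in young mice, a log2 fold change of 5.65 (SE 0.21, edgeR adjusted p = 1.08e-10), and from 10.6 ± 3.21 to 348 ± 39.2 CPM in middle-aged mice, a log2 fold change of 5.04 (SE 0.20, edgeR adjusted p = 1.53e-10).

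Tlr7, a sensor of single-stranded RNA, had 20, 24 and 21 counts in the young naive pools and 1136, 991 and 1085 in the young injured pools. It had 38, 36 and 76 counts in the middle-aged naive pools and 1261, 1235 and 1075 in the middle-aged injured pools. The log2 fold change was 5.27 (SE 0.20, edgeR adjusted p = 1.16e-10) at 6 weeks and 4.43 (SE 0.18, edgeR adjusted p = 2.18e-10) at 8 months, with injured levels of 80.6 ± 3.41 and 98.7 ± 5.93 CPM (SD, n = 3). Every injured pool was far above every naive pool.

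Tlr8, the neighbor of Tlr7 and also a receptor for RNA, was not detected in young naive white matter, where all 3 pools had 0 counts. It had 116, 125 and 108 counts in the young injured pools, 2, 0 and 0 in the middle-aged naive pools and 167, 110 and 143 in the middle-aged injured pools. In young mice it was at least 91.5-fold higher after injury, taking 3 counts over the naive group as the floor (edgeR adjusted p = 3.69e-07), and the exact 95% counting interval of the ratio began at 74.0. In middle-aged mice the ratio of normalized counts was 188, with a 95% counting interval of 51.9 to 1561 (edgeR adjusted p = 2.63e-07). Amplified reads are not independent molecules, so that intervals and floors cover counting error only.

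Tlr9, the receptor for unmethylated CpG DNA, was per length the lowest in injured tissue of the receptors that rose. It had 2, 2 and 0 counts in the young naive pools, 0, 2 and 5 in the middle-aged naive, 22, 33 and 14 in the young injured and 27, 17 and 11 in the middle-aged injured pools. The log2 fold change was 3.67 (SE 0.82, edgeR adjusted p = 0.00156) at 6 weeks and 2.78 (SE 0.76, edgeR adjusted p = 0.00578) at 8 months. From counting error alone, the ratio of normalized counts had a 95% interval of 5.06 to 51.2 around 13.6 at 6 weeks, and of 3.20 to 18.4 around 7.05 at 8 months.

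Tlr3, the receptor for double-stranded RNA, was per length the most abundant receptor in both naive groups, clear of all others in young mice, while its pools overlapped those of Tlr2 and Tlr13 in middle-aged mice. It had 191, 192 and 163 counts in the young naive, 278, 203 and 204 in the middle-aged naive, 236, 251 and 265 in the young injured and 215, 207 and 240 in the middle-aged injured pools. Injured and naive pools overlapped at both ages. Its log2 fold change was 0.12 (95% interval -0.28 to 0.51, edgeR adjusted p = 0.620) at 6 weeks and -0.22 (-0.61 to 0.17, edgeR adjusted p = 0.317) at 8 months, intervals that hold no rise or fall of 2-fold.

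The remaining mouse receptors of the family were scarce. Tlr11 had 0 to 3 counts per pool and was not tested. Tlr12 had 1 to 14 counts per pool, with log2 fold changes of -0.06 (edgeR adjusted p = 0.948) at 6 weeks and 0.17 (edgeR adjusted p = 0.861) at 8 months.

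**Figure D2:**
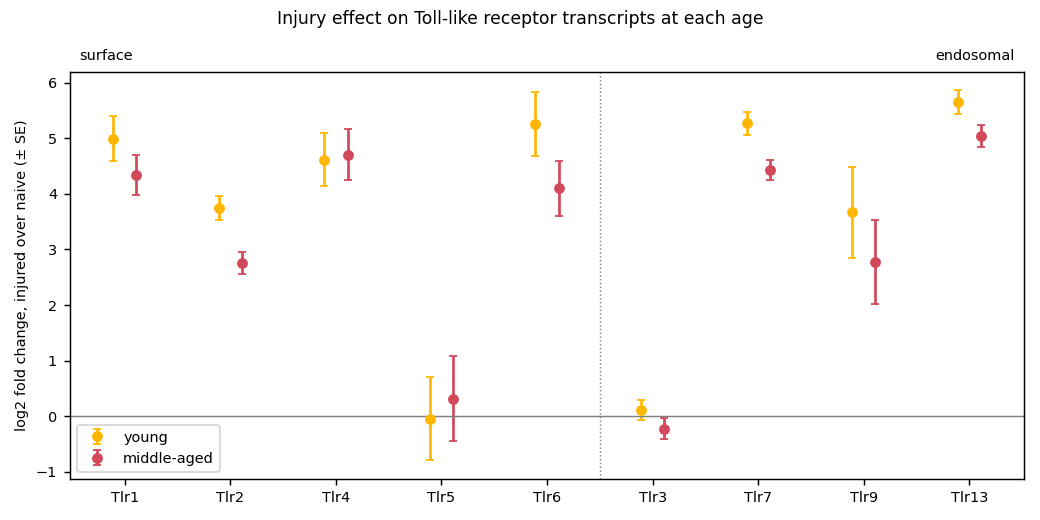
Log2 fold change of each receptor in injured over naive white matter, with its standard error, in young and middle-aged mice, the surface receptors to the left of the dotted line. Tlr8 is left out because its naive pools had 0 to 2 counts; Tlr3 and Tlr5 lie near 0 and the other receptors drawn between 2.76 and 5.65.

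To compare receptors with each other, CPM was divided by the length of all exons of a gene in kilobases. In young naive white matter, the order from the highest level was Tlr3 (3.35 CPM per kb), Tlr2 (1.48), Tlr13 (0.970), Tlr7 (0.511), Tlr4 (0.218), Tlr1 (0.159), Tlr5 (0.151), Tlr6 (0.0895), Tlr9 (0.0348) and Tlr8 (0). Tlr3 stood clear of Tlr2, the pools of Tlr2 and Tlr13 overlapped, and below Tlr7 each neighbor in the order overlapped the next. In middle-aged naive white matter the first 4 were the same, at 4.12, 3.00, 2.46 and 1.1 CPM per kb, the pools of Tlr3 and Tlr2 and those of Tlr2 and Tlr13 overlapped, and Tlr13 was clear of Tlr7.

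After injury, Tlr13 led the order at both ages, clear of all other receptors. In young injured tissue it stood at 48.9 CPM per kb, followed by Tlr2 (19.9) and Tlr7 (19.8), which overlapped, then Tlr4 (5.49) and Tlr1 (5.25), which overlapped, Tlr6 (3.68) and Tlr3 (3.63), which overlapped, Tlr8 (2.45), Tlr9 (0.501) and Tlr5 (0.148). In middle-aged injured tissue Tlr13 stood at 80.8 CPM per kb, and Tlr7 (24.2) was clear of Tlr2 (20.2). Tlr1 (8.07) and Tlr4 (7.95) overlapped, Tlr6 (4.66) was clear of Tlr3 (3.53), and Tlr3 overlapped Tlr8 (3.25), with Tlr9 (0.436) and Tlr5 (0.154) last.

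Added up, the 10 receptors went from 6.97 ± 0.509 to 110 ± 2.23 CPM per kb (SD, n = 3) in young white matter, and in middle-aged white matter from 11.8 ± 1.16 to 153 ± 13.0. Surface receptors made up 32.9%, 26.2% and 30.8% of this sum in the young naive pools, 38.5%, 31.8% and 32.4% in the middle-aged naive, 30.8%, 32.6% and 30.6% in the young injured pools, and 26.5%, 26.7% and 27.2% in the middle-aged injured pools. Endosomal receptors were thus the larger part in all 12 pools. The surface share was lower in middle-aged injured pools than in young injured or middle-aged naive pools, without overlap, while young naive and young injured pools overlapped. From counts without length, middle-aged injured pools (23.7% to 24.2%) overlapped middle-aged naive pools (23.2% to 30.6%). They stayed below young injured pools (27.0% to 28.6%). The shares are a description, and no test was run on them.

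The make-up of the endosomal part changed with injury at both ages. Tlr3 made up 48.3% ± 3.55 (SD, n = 3) of the summed level in young naive and 34.5% ± 5.28 in middle-aged naive tissue, and 3.31% ± 0.22 and 2.33% ± 0.478 after injury. Tlr13 made up 13.9% ± 1.54 and 21.0% ± 6.50 in naive tissue, and 44.6% ± 0.458 and 52.7% ± 1.77 after injury. The naive and injured pools did not overlap in either share. Tlr7 went from 7.39% ± 1.23 to 18.0% ± 1.12 in young mice and from 9.59% ± 3.98 to 15.8% ± 0.612 in middle-aged mice. The ratio of Tlr13 to Tlr2, the leading endosomal and surface receptors of the lesion, was 0.674 ± 0.154 in young naive, 0.846 ± 0.275 in middle-aged naive, 2.47 ± 0.164 in young injured tissue, then 4.0 ± 0.338 in middle-aged injured tissue.

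**Figure D3:**
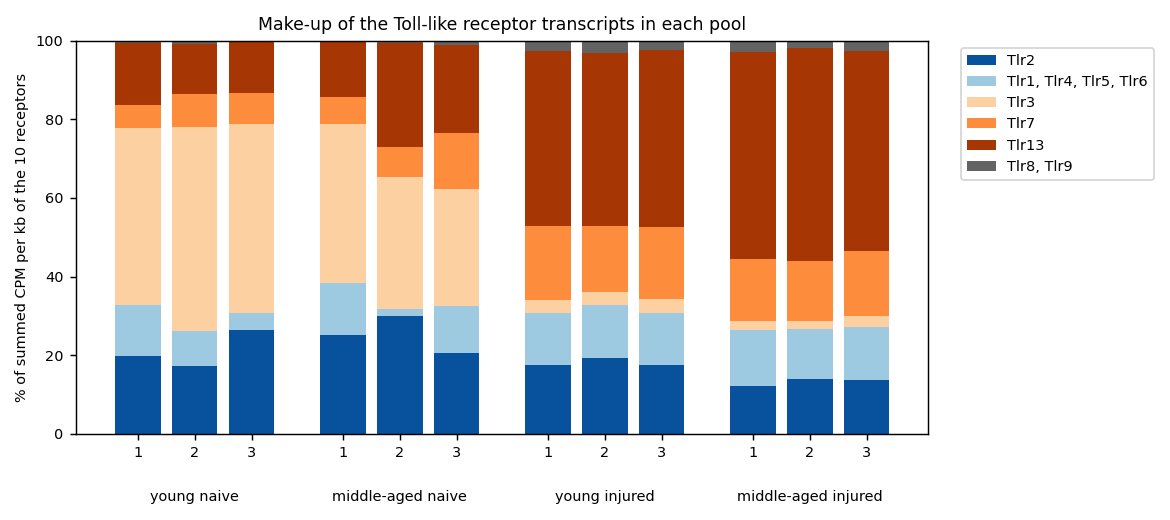
Share of each receptor in the summed CPM per kb of the 10 receptors, in percent, with 1 bar for each pool, numbered by replicate within its group; surface receptors are blue and Tlr3, Tlr7 and Tlr13 orange to brown. Tlr3 takes 29.8% to 51.9% of a naive pool and 2.0% to 3.52% of an injured pool, and Tlr13 44.2% to 54.3% of an injured pool.

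Transcripts of myeloid cells, and of fibroblasts and endothelium, rose in the same pools. The 6 pan-myeloid markers Csf1r, Itgam, Aif1, Cd68, Ptprc and Tyrobp all rose at both ages, from a summed 71.8 to 102 CPM in young naive and 110 to 147 CPM in middle-aged naive pools to 1373 to 1394 CPM and 1461 to 1950 CPM in injured pools. Of the 4 monocyte markers, all 4 rose at both ages, from a summed 0.0906 to 0.273 CPM in young naive and 0.420 to 1.54 CPM in middle-aged naive pools to 73.9 to 113 CPM and 163 to 206 CPM, and Ccr2, Chil3 and Plac8 were at 0 in every young naive pool. Of the 6 markers of homeostatic microglia, 3 rose and 1 fell at 6 weeks, and 2 rose and 2 fell at 8 months. Of the 5 neutrophil markers only Mmp8 was tested, and it rose at both ages; the defining markers Ly6g and Retnlg had at most 4 and 1 counts per pool. The B cell markers Ms4a1 and Cd79a had at most 6 and 2 counts in a pool, and of the T cell markers Cd3e and Cd3d had at most 5 and 2 counts, while Cd3g reached 26. Of the dendritic cell markers, Xcr1 and Clec9a rose and Flt3 fell at both ages, and Zbtb46 did not pass. The 3 fibroblast markers Col1a1, Dcn and Lum rose at both ages with medians of 4.32 and 4.46, against 4.34 and 3.60 for the pan-myeloid markers, and the endothelial Pecam1 and Cdh5 rose while Cldn5 did not pass. The 6 oligodendrocyte markers and 3 of the 4 astrocyte markers fell at both ages, and of the 4 neuronal markers 2 fell at 6 weeks, and 3 fell and 1 rose at 8 months. The part that each cell type has in the receptor changes was not tested.

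To see which receptors moved more or less than these myeloid transcripts, the libraries were scaled so that the mean log2 CPM of the 6 pan-myeloid markers was equal in all pools. Against this reference, 3 receptors were higher in injured tissue at both ages, all endosomal: Tlr7, Tlr8 and Tlr13. Tlr8 had 0 to 2 counts in a naive pool and passed the filter only through the injured pools, so that its call adds no support. Tlr7 and Tlr13 passed the filter on the naive pools alone. The share of all genes called higher was 1.20% in young and 2.19% in middle-aged mice, and 93.4% and 92.1% were lower, since this scaling moved the median of all genes to -4.31 and -3.59. Tlr13 gained 1.33 on the log2 scale (SE 0.28, edgeR adjusted p = 9.41e-05) at 6 weeks and 1.53 (SE 0.27, edgeR adjusted p = 1.06e-05) at 8 months. Tlr7 gained 0.97 (SE 0.33, edgeR adjusted p = 0.00721) and 0.91 (SE 0.31, edgeR adjusted p = 0.00783).

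Pool by pool, the log2 ratio of Tlr13 to the mean of the markers was -0.16, -0.64 and -1.05 in young naive, -0.38, -0.20 and -0.46 in middle-aged naive, 0.80, 0.71 and 0.72 in young injured tissue, then 1.1, 1.20 and 1.26 in middle-aged injured tissue. Every injured pool was above every naive pool. For Tlr2 the ratio was -0.32, -0.71 and -0.58 in young naive, -0.05, -0.54 and -1.09 in middle-aged naive, -1.06, -0.99 and -1.16 in young injured tissue, then -1.54, -1.28 and -1.14 in middle-aged injured tissue. Within each age, every injured pool was below every naive pool, in middle-aged mice by little (-1.14 against -1.09). The share of all genes separated in such a ratio, upward or downward, was not counted. Scaled to the markers, 93.4% of all genes in young and 92.1% in middle-aged mice were called lower.

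The receptors lower against the pan-myeloid markers were Tlr3 and Tlr5 at 6 weeks, and Tlr2, Tlr3 and Tlr5 at 8 months. Under this scaling 93.4% and 92.1% of all genes were lower, with medians of -4.31 and -3.59. Tlr3 (-4.21 and -3.81) and Tlr5 (-4.36 and -3.39) lay near those medians, so that their calls do not set them apart from all genes. Tlr2 differed by -0.54 on the log2 scale (SE 0.31, edgeR adjusted p = 0.104) in young and by -0.81 (SE 0.31, edgeR adjusted p = 0.0157) in middle-aged mice. Tlr1, Tlr4, Tlr6 and Tlr9 passed in neither direction at either age. The markers differ among themselves, with log2 fold changes in young mice from 2.08 for Csf1r to 6.90 for Cd68, and the calls follow the markers used. With Csf1r, Itgam and Aif1 alone, 6 receptors were higher in young (Tlr1, Tlr4, Tlr6, Tlr7, Tlr8, Tlr13) and 5 in middle-aged mice (the same without Tlr6). Of these, Tlr1, Tlr6 and Tlr8 passed the filter only through the injured pools. The share of all genes called with the smaller marker sets or with a pool left out was not counted. With Cd68, Ptprc and Tyrobp alone, Tlr8 was higher in young and Tlr8 and Tlr13 in middle-aged mice, where Tlr13 gained 0.78 (SE 0.24, edgeR adjusted p = 0.0045), and Tlr7 differed by -0.03 and 0.15. Tlr2 was then lower at both ages, by -1.55 and -1.56. With Csf1r, Itgam and Aif1 alone Tlr2 passed at neither age, at 0.47 in young and -0.06 in middle-aged mice. With all the markers, its lower call in middle-aged mice was lost without middle-aged injured replicate 1 (edgeR adjusted p = 0.0672). Without young naive replicate 1, Tlr1 and Tlr6 were also higher in young mice, and without middle-aged naive replicate 1, Tlr1 and Tlr4 were also higher and Tlr3 alone lower in middle-aged mice. Tlr7, Tlr8 and Tlr13 kept their call with each of the 12 pools left out in turn.

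**Figure D4:**
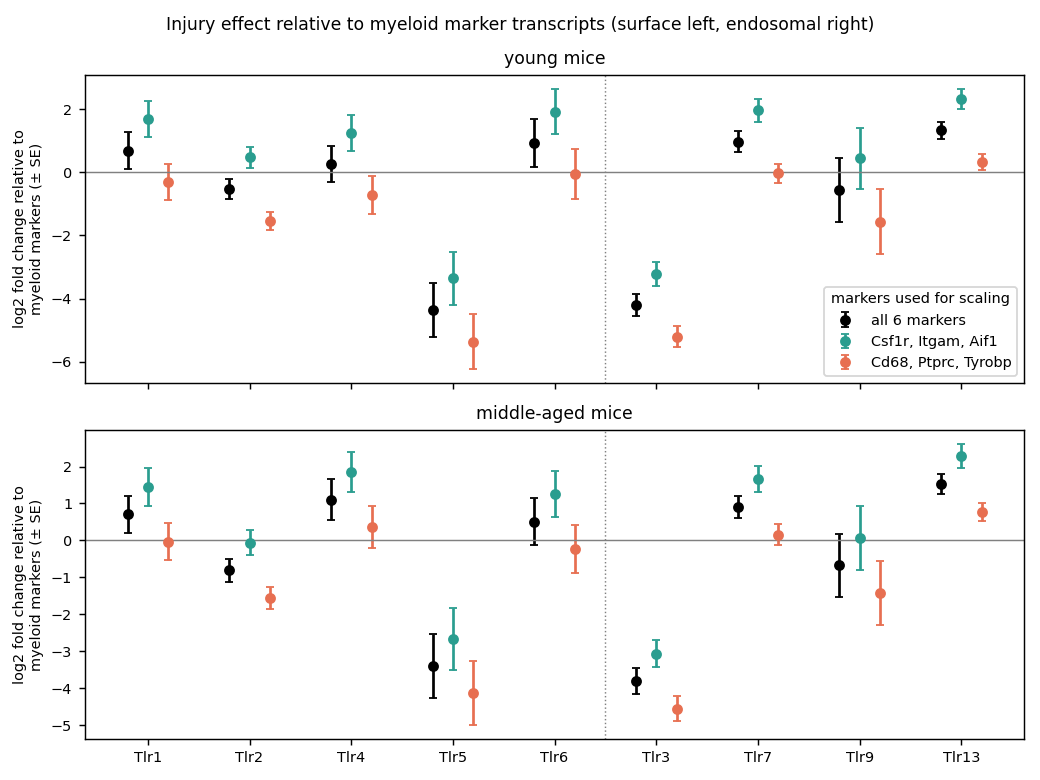
Log2 fold change of each receptor in injured over naive tissue relative to myeloid marker transcripts, with its standard error, for all 6 markers and for each set of 3 (colors), in young and middle-aged mice; Tlr8 is left out for its 0 to 2 naive counts. With all 6 markers Tlr13 lies at 1.33 and 1.53 and Tlr3 at -4.21 and -3.81, and every point moves with the marker set. The median of all genes was then -4.31 in young and -3.59 in middle-aged mice.

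In naive white matter, 3 of the 10 receptors were higher at 8 months than at 6 weeks, Tlr2, Tlr7 and Tlr13, and none was lower, against 2.02% of all genes that were higher. The same 3 were those whose pools did not overlap between ages, as for 7.77% of all genes. Tlr13 went from 4.17 to 10.6 CPM (log2 difference 1.33, SE 0.21, edgeR adjusted p = 0.00364), Tlr7 from 2.09 ± 0.232 to 4.50 ± 1.37 CPM (1.13, SE 0.22, edgeR adjusted p = 0.0115) and Tlr2 from 4.47 to 9.03 CPM (1.01, SE 0.22, edgeR adjusted p = 0.0224). Tlr3 differed by 0.30 (95% interval -0.10 to 0.69, edgeR adjusted p = 0.422), and Tlr1 and Tlr6 by 1.27 (edgeR adjusted p = 0.187) and 1.49 (edgeR adjusted p = 0.290), on few counts.

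The age difference in naive tissue came with myeloid markers: 4 of the 6 pan-myeloid markers were also higher, with a median log2 difference of 1.14, and 3 of the 6 oligodendrocyte markers were lower. The count of pan-myeloid markers was 2 without young naive replicate 1 or 2, and 0 with only the naive pools in the fit. Scaled to the pan-myeloid markers, no receptor differed between ages by edgeR (Tlr13 0.24, Tlr7 0.08, Tlr2 0.03), and 1, Tlr3, had an unadjusted p under 0.05 (-0.69, unadjusted p = 0.0427). Of all genes, 0.630% were higher and 67.5% lower under this scaling, with a median of -1.02. With only the naive pools in the fit, 0 of the 10 receptors passed (edgeR adjusted p = 0.139 for Tlr13, 0.313 for Tlr7 and 0.282 for Tlr2). Without young naive replicate 1, Tlr2 (edgeR adjusted p = 0.0707) and Tlr7 (0.0545) did not pass, and without young naive replicate 2, Tlr2 did not (0.105).

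In injured white matter, Tlr13 was the receptor that differed between ages, higher in middle-aged mice by 0.72 on the log2 scale (SE 0.16, edgeR adjusted p = 0.0468), against 0.240% of all genes that were higher. Its pools were at 207, 213 and 211 CPM in young and 369, 371 and 303 CPM in middle-aged injured tissue. This call lies close to the threshold: it was lost with library totals (edgeR adjusted p = 0.0524), with the replicate block (0.0586) and in 9 of 12 fits lacking a pool, all but those lacking middle-aged naive replicate 1 or 2 or middle-aged injured replicate 3, up to an adjusted p of 0.214, while its log2 difference kept between 0.66 and 0.83. DESeq2 gave an adjusted p of 0.0016, and the fit of the injured pools alone called Tlr1 (edgeR adjusted p = 0.0439), Tlr4 (0.0124) and Tlr13 (0.0022).

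For Tlr1, Tlr4, Tlr6, Tlr7 and Tlr13, every middle-aged injured pool was above every young injured pool, as for 11.1% of all genes. For Tlr2 the log2 difference was 0.02 (SE 0.18, edgeR adjusted p = 0.997), with overlapping pools. In the same comparison 5 of 6 oligodendrocyte markers were lower, with a median of -0.86, but only 1 or 2 of them without young injured replicate 2 or 3 or middle-aged injured replicate 1 or 2. Here too the share of all genes that were lower is not given. By edgeR 0 of the 6 pan-myeloid markers passed (2 with an unadjusted p under 0.05, a share not counted over all genes). Scaled to the pan-myeloid markers, Tlr13 differed by 0.45 (edgeR adjusted p = 0.685), and 0.0315% of all genes were higher and 0.687% lower.

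The injury effects of both ages share no pools, and their difference was tested as an interaction. None of the 10 receptors passed by edgeR or DESeq2, against 0.139% of all genes by edgeR's adjusted p. The share of all genes at an unadjusted p under 0.05 was not counted. At an unadjusted p under 0.05 there were 3 in each tool, in edgeR Tlr2 (-0.99, unadjusted p = 0.0039, adjusted p = 0.208), Tlr7 (-0.84, unadjusted p = 0.00711, adjusted p = 0.259) and Tlr13 (-0.61, unadjusted p = 0.039, adjusted p = 0.467). For all 3, the fitted rise was smaller in middle-aged mice, whose naive level was higher. That level is itself part of the fitted rise, so these are not separate observations.

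**Figure D5:**
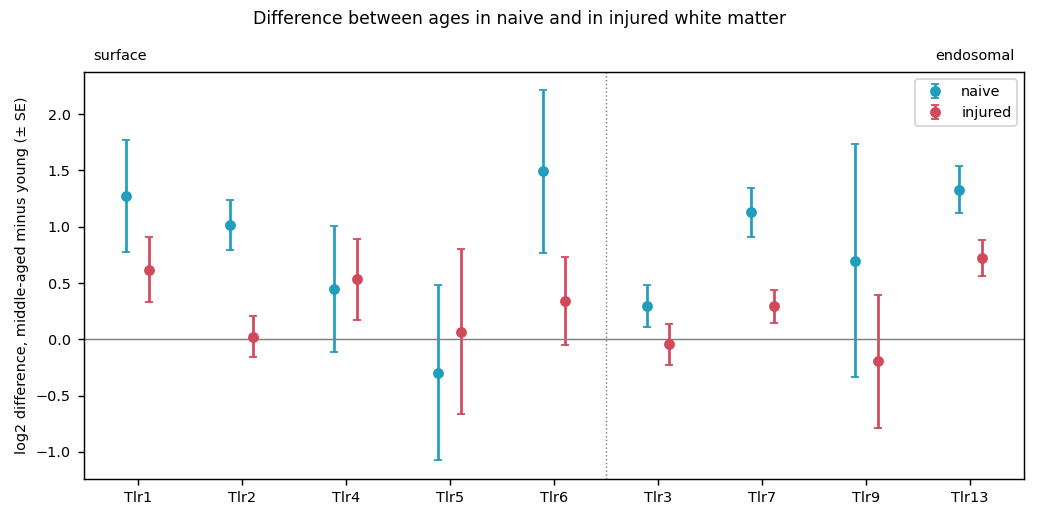
Log2 difference between middle-aged and young mice for each receptor, with its standard error, in naive and in injured white matter; Tlr8 is left out for its 0 to 2 naive counts. In naive tissue Tlr2, Tlr7 and Tlr13 lie at 1.01, 1.13 and 1.33, and in injured tissue Tlr13 at 0.72.

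The partners and pathway genes of the receptors were described from lists. Beside the counts of each list, 28.3% of all genes rose and 26.3% fell at 6 weeks, and 29.2% rose and 29.3% fell at 8 months. Between ages, 2.02% of all genes were higher in middle-aged naive and 0.240% in middle-aged injured tissue. All 6 co-receptors rose at both ages, with medians of 4.20 and 3.23. Cd36, a scavenger receptor that also presents lipids to Tlr2, rose by 8.62 on the log2 scale at 6 weeks and 8.23 at 8 months, and Cd180, a Toll-like relative of Tlr4, by 5.63 and 4.23. Lbp and Cd14, which hand lipopolysaccharide to Tlr4, rose by 4.75 and 1.27 and by 3.65 and 3.72. Ly86, partner of Cd180, rose by 3.48 and 2.74, and Ly96, partner of Tlr4, by 2.82 and 2.46. In naive tissue Cd36 (1.31), Cd180 (1.30) and Ly86 (0.78) were higher in middle-aged mice, and none of them was without young naive replicate 1 or 2 or with only the naive pools in the fit. In injured tissue Cd36 was higher in middle-aged mice (0.92) with each of the 12 pools left out in turn. The rise of Lbp at 8 months was lost in 6 of those 12 fits.

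Of the 9 genes for the transport and cleavage of endosomal receptors, 7 rose and 1 fell at 6 weeks, and 6 rose and 0 fell at 8 months (medians 2.50 and 2.71). Unc93b1, which carries endosomal receptors from the endoplasmic reticulum, had 67, 85 and 86 counts in the young naive and 671, 879 and 763 in the young injured pools. At 6 weeks its log2 fold change was 2.93 (edgeR adjusted p = 1.54e-07), against 2.71 (edgeR adjusted p = 2.24e-07) at 8 months. The proteases Ctsb (4.08 and 4.08), Ctss (3.89 and 3.45) and Ctsl (3.33 and 3.75) rose at both ages, Ctsk fell in young mice (-0.60, a call lost with library totals), and Cnpy3 did not pass (0.34 and -0.16). Between ages, Ctss was higher in middle-aged naive tissue (0.99) and Ctsl in middle-aged injured tissue (0.65). The call of Ctss was lost with only the naive pools in the fit, and that of Ctsl with library totals and in 7 of the 12 fits that each lacked a pool.

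Of the 14 adaptors and kinases, 9 rose and 0 fell at 6 weeks, and 10 rose and 1, Tab1 (-0.85), fell at 8 months, with medians of 0.80 and 0.86 that were lower than those of the receptors. Myd88, the adaptor of all these receptors but Tlr3, rose by 1.95 and 1.53, and Ticam1, the adaptor of Tlr3 and Tlr4, by 1.14 and 1.68. The highest were Ticam2 (4.50 and 3.63), which bridges Tlr4 to Ticam1, and the kinase Ikbke (4.26 and 3.73). Traf3 (-0.42 and -0.18) did not pass. All 5 transcription factors rose at 6 weeks, and 4 at 8 months, the highest being Irf7 (3.42 and 2.56) and Irf5 (1.61 and 1.74), the lowest Rela (0.46 and 0.34, the latter lost in 6 of the 12 fits that each lacked a pool), while Irf3 rose in young mice (0.96) and did not pass in middle-aged mice (0.39).

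Inhibitors were mixed. Of the 8 tested of 9, 3 rose and 3 fell at 6 weeks (1 fell with library totals or without young naive replicate 1), and 3 rose and 1 fell at 8 months (2 fell in each fit that lacked a middle-aged naive pool) (medians 0.35 and 0.41). Tnfaip3, a deubiquitinase that restrains NF-kB, rose by 3.77 and 3.50, and Irak3, a brake on the Myd88 pathway, by 1.57 and 1.77. Sarm1, a TIR adaptor that also drives axon degeneration, fell by 1.11 and 1.12 on the log2 scale, a call lost at 6 weeks without young naive replicate 1, and Cyld was lower in young mice (-0.55, a call lost with library totals) with -0.14 in middle-aged mice. Of the proposed endogenous ligands, 6 of 6 tested rose at both ages, among them Tnc (3.64 and 4.57), Vcan (1.53 and 1.20) and Hmgb1 (0.59 and 0.64). Saa3 and S100a8 had 0 counts in every naive pool, and 43 to 137 and 10 to 23 in the injured pools. The list median was 2.91 and 3.11 with such genes at a floor of 3 counts over the naive group. Between ages, Tnc was lower in middle-aged naive (-0.61) and Vcan in middle-aged injured tissue (-0.75), calls that were lost in 11 and in 8 of the 12 fits that each lacked a pool.

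NF-kB output genes were scarce at this time: of 8, 5 were tested, and 4 rose in young and 5 in middle-aged mice, with medians of 3.63 and 4.69 with genes at 0 set at the floor. Tnf had at most 1 count in any naive pool and 12 to 28 in the injured pools. Il1b had 0 to 2 counts in the naive, 15, 30 and 18 in the young injured and 86, 87 and 73 in the middle-aged injured pools, and was higher in the latter (log2 difference 2.09, edgeR adjusted p = 0.0443), a call lost with the replicate block and in 7 of the 12 fits that each lacked a pool. Cxcl1 had 0 to 2 counts in the naive and 5 to 67 in the injured pools. Il6 did not pass in young mice (0.68) and rose in middle-aged mice (2.81), a call lost with the replicate block and in 3 of those fits. The rise of Cxcl1 in young mice was lost in 4 of them.

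Interferon output genes followed another course. All 7 tested rose in young mice, with a median of 4.02, and 3 of them (Isg15, Mx1 and Oasl2) in middle-aged mice, with a median of 0.70, where the call of Mx1 was lost with DESeq2, with only the pools compared and without middle-aged injured replicate 1 or 2. In young mice Mx1 rose by 6.32, Cxcl10 by 6.08, Ifit1 by 3.37 and Ifit3 by 2.44. In naive tissue, 5 were higher at 8 months than at 6 weeks: Cxcl10 (5.51), Mx1 (4.60), Rsad2 (3.03), Ifit1 (2.15) and Ifit3 (1.93). Cxcl10 had 0, 1 and 8 counts in the young naive pools, 306, 79 and 47 in the middle-aged naive, 345, 321 and 148 in the young injured and 193, 192 and 81 in the middle-aged injured pools. All 7 had their highest middle-aged naive count in replicate 1. Without that pool, 6 of the 7 rose in middle-aged mice and 4 were higher in middle-aged naive tissue. Without any 1 of the 3 young naive pools 2 were higher there, and with only the naive pools in the fit, 0. Ifnb1 had 0 counts in every pool. In the fit of all 12 pools, 0 of the pathway genes passed the edgeR test of a different injury effect between ages. Of them, 12 of 60 had an unadjusted p under 0.05, a share not counted over all genes. DESeq2 called 4 interferon output genes and 2 co-receptors lower and 1 proposed ligand higher in that test, and edgeR called 3 interferon output genes lower with the replicate block and 4 without middle-aged naive replicate 3.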

How the data were processed

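RNA sequencing of 12 pools of laser-captured white matter was analysed, with group and replicate taken from the sample labels and ages from the study's methods. Raw featureCounts counts per gene were deposited by the authors, from reads inspected with FastQC 0.11.4 and aligned to GRCm38 by TopHat2 2.0.10 with Bowtie 1.1.2; annotation release, strand setting and handling of shared reads are not given in the sources used here. Tests used edgeR 4.0.16 under R 4.3.3 (trimmed mean of M values, TMM; filterByExpr, glmQLFit and glmQLFTest, 1 coefficient per group, no covariates), adjusted by Benjamini-Hochberg over 15866 genes with a threshold of 0.05. Standard errors were derived from the F statistic (absolute log2 fold change over root F). Before taking log2, a prior of 2 counts was added. DESeq2 1.42.0, 3 other scalings, 2 other filters, a replicate block, the compared pools alone and each pool left out were alternatives. Symbols matched 45143 of 46078 identifiers, and positions and lengths came from GENCODE on GRCm38.

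The members and lists were chosen with earlier results of these data known. Named were all 10 receptors, Tlr11 and Tlr12, all co-receptors, Unc93b1, Myd88, Ticam1 and Irak3, from each pathway list the 2 genes with the highest and the 2 with the lowest injury effect in young mice, and list genes past the threshold between ages. Sums of Tlr1 and Tlr6, age contrasts scaled to myeloid markers, the filter on naive pools and the alternatives for lists were chosen after seeing the data. Same-numbered pools did not deviate together (correlations of -0.113 to 0.153), so the number was not used to pair them. On simulated counts for the injury contrast in young mice, with 14825 genes tested, edgeR recovered 56 of 96 genes changed 2-fold and 85 of 95 changed 4-fold, and 5.37% of its calls were false. The simulation gave every group the young naive mean and changed 191 of those genes by these folds, up or down. In the data 28.3% of genes rose and 26.3% fell, so these rates do not cover so broad a shift. Intervals of count ratios are exact binomial (Clopper-Pearson) at 95%.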

Additional observations from a re-analysis of the deposited data

How the results depend on the processing

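The counts of 8 receptors higher after injury kept their value at both ages under every alternative run, and library totals moved the median of all genes by 0.20 (log2) in young injury. Between ages in naive tissue, the count of 3 became 0 with only the pools compared and 0 when scaled to pan-myeloid markers, and ranged from 1 to 3 with a pool left out. Between ages in injured tissue, the count of 1 became 0 with library totals, 0 with the replicate block (Tlr13 0.72, edgeR adjusted p = 0.0586), 0 when scaled to pan-myeloid markers and 3 with only the pools compared, and ranged from 0 to 1 with a pool left out. The block changed 1 other count, receptors higher against the pan-myeloid markers in middle-aged mice, which went from 3 to 4. That count became 6 in young and 5 in middle-aged mice with Csf1r, Itgam and Aif1, and 1 in young mice with Cd68, Ptprc and Tyrobp, and ranged from 3 to 5 at both ages with a pool left out. For these fits the share of all genes called was not counted. The count lower in middle-aged mice ranged from 1 to 3. From counts without length, the surface share was 23.3% in young naive, 26.8% in middle-aged naive, 27.6% in young injured tissue, and 23.9% in middle-aged injured tissue, and with the longest transcript it was 27.4% in the last. The cause of these moves was not tested.

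Among fits not scaled to myeloid markers, directions that turned all belong to differences that had not passed the test. Scaled to the markers, Tlr7 for injury in young mice passed at 0.97 with all of them. It was at -0.03 with Cd68, Ptprc and Tyrobp alone. With library totals, Tlr5 was at 0.15 for injury in young mice, Tlr2 at -0.035 between ages in injured tissue, and Tlr4 at -0.010 in the interaction. With a pool left out, Tlr5 ranged from -0.47 to 0.26 for injury in young and -0.23 to 1.99 in middle-aged mice, from -1.96 to 0.16 between ages in naive, -0.47 to 0.51 in injured tissue and -0.19 to 2.03 in the interaction. Tlr4 ranged from -0.056 to 0.94 between ages in naive tissue and -0.41 to 0.59 in the interaction, and Tlr9 from -0.30 to 1.24, -0.57 to 0.19 and -1.43 to 0.10 in naive, injured and the interaction. Between ages in injured tissue, Tlr2 ranged from -0.037 to 0.098 and Tlr3 from -0.12 to 0.031. Tlr8 ranged from -2.95 to 0.41 in the interaction. Depth limits the sparse receptors, with at most 15 counts in any naive pool for Tlr5, Tlr8 and Tlr9 and at most 17 for Tlr6.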
